A study of Mus musculus with 3 samples.

Results

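Red pulp macrophages are the resident macrophages of the spleen's red pulp. In these data they were 132 of the 47453 barcodes kept from 54971 in 3 single-cell RNA libraries of mouse splenocytes. Members were chosen by measured transcripts, counted as unique molecular identifiers (UMIs, 1 per captured RNA molecule). A member had at least 2 UMIs summed over the complement C1q chains C1qa, C1qb and C1qc. It also had at least 3 UMIs summed over 6 markers (Vcam1, Hmox1, Spic, Slc40a1, Cd5l and Fcna) and none of Cxcl14 or of the B cell gene Cd79a. A kept barcode had more than 200 and fewer than 3500 genes, less than 15% of its UMIs from mitochondrial genes, and a leading hashtag at least 3 times the second. The C57BL/6 control library held 22 members, the C57BL/6 Ang II library 45 and the B6.SLE123 library 65.

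The study asked how isolevuglandins, reactive products of lipid oxidation, act on PU.1-dependent C1q expression in lupus-prone mice. Spleens came from mice aged 12 to 14 weeks, and T cells had been depleted with CD3 microbeads. Each library joined 2 conditions, each a pool of 3 mice marked with hashtag antibodies. The control library held male sham mice and female C57BL/6 mice, with sham named in the label for the males only. The Ang II library held C57BL/6 mice given angiotensin II by minipump for 2 weeks, with or without the isolevuglandin scavenger 2-HOBA. The B6.SLE123 library held mice that carry 3 lupus susceptibility loci on the C57BL/6 background, untreated or given 2-HOBA for 6 weeks. The study's methods give female B6.SLE123 mice and female C57BL/6 controls, the labels add male sham mice to the control library, and the sex of the Ang II mice is not given in the labels. Sex and group therefore cannot be told apart. Nothing ties a hashtag to a condition, and the pooled conditions, 2-HOBA among them, were not compared. With 1 library per group there was no replicate check and no test. Every interval below is an exact 95% interval that covers counting error only.

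Red pulp macrophages take up aged red blood cells and return their iron. Hmox1 (heme oxygenase) opens the heme ring, biliverdin reductases reduce the product, ferritin stores the iron and Slc40a1 (ferroportin) exports it. Their formation depends on the transcription factor Spi-C, encoded by Spic, a relative of PU.1. They are also a source of C1q, which binds apoptotic debris and begins the classical complement pathway.

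The C1q chains and Spic carry the definition of these cells, and PU.1 is the factor the study examined at the C1q genes. The 250 bases before the annotated start of C1qb, C1qc and Spic are therefore shown from RefSeq on GRCm38.p6, read 5′ to 3′ on each gene's own strand. Of the 9 genes in the rule, 5 had an entry in the promoter table used. Capitals mark GAGGAA or its reverse TTCCTC, letters that PU.1 is known to bind and that hold GGAA, the shorter core of ETS factors.
C1qb: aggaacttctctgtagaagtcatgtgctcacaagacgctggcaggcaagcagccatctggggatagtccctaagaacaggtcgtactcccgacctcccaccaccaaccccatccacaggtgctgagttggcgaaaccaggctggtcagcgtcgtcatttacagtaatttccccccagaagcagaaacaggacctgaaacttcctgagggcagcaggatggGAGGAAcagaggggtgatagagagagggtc
C1qc: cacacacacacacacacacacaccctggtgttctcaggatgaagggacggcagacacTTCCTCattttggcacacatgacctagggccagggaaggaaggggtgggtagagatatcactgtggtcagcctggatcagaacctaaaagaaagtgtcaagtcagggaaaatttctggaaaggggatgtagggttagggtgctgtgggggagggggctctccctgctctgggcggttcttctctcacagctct
Spic: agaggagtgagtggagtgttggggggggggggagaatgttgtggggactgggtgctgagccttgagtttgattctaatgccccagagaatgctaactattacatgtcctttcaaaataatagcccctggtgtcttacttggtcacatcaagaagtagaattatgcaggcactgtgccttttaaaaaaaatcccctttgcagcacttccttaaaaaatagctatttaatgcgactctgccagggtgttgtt

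The C1qb stretch, at chr4:136886201-136886450 on the minus strand, held 1 match, 30 bases before the start. The C1qc stretch, at chr4:136892915-136893164 on the minus strand, held 1 match on the opposite strand, 193 bases before the start. The Spic stretch, at chr10:88683024-88683273 on the minus strand, held 0 matches. The same letters stood in 7631 of 32817 promoters of this length (23.25%), so a match by itself describes the letters and no binding. A stretch without a match can still hold the shorter core, as the Spic stretch does. Unmarked GGAA or its reverse TTCC also stands in the C1qb and C1qc stretches, so the capitals do not show every core. The PU.1 probe of the study's binding assay holds neither GAGGAA nor TTCCTC.

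Members were a small and shallow class. They made up 0.138% of kept barcodes in the control library (95% interval 0.0864 to 0.209), 0.322% with Ang II (0.235 to 0.430) and 0.371% in B6.SLE123 (0.287 to 0.473). The B6.SLE123 share was 2.69-fold that of the control library (log2 1.43, interval 0.71 to 2.20) and the Ang II share 2.33-fold (log2 1.22, 0.46 to 2.03). The B6.SLE123 and Ang II shares lay within counting error of each other, with a log2 ratio of 0.21 (-0.36 to 0.79).

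The median member held 937.5 UMIs in control, 849 with Ang II and 904 in B6.SLE123. The median kept barcode of the same libraries held 1792, 2771 and 1956 UMIs, and the shallowest member of each library lay between 507 and 516. Since the rule asks for a number of UMIs, depth bears on who passes it. When every kept barcode was thinned to 1000 UMIs before the rule was applied, 0.0798%, 0.111% and 0.185% passed in the same order, with 1388, 898 and 2180 shallower barcodes left out. The log2 ratio of the share against control was then 1.21 for B6.SLE123 and 0.47 for Ang II. The Ang II ratio fell more, though both stayed within their intervals above, Ang II at its lower end. The barcodes left out included 11 of 22, 26 of 45 and 36 of 65 members. Equal depth and the loss of shallow members therefore cannot be told apart here. These ratios rested on a mean of 11.6 members in control, 14.5 with Ang II and 28.4 in B6.SLE123 over repeated thinning.

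**Figure D1:**
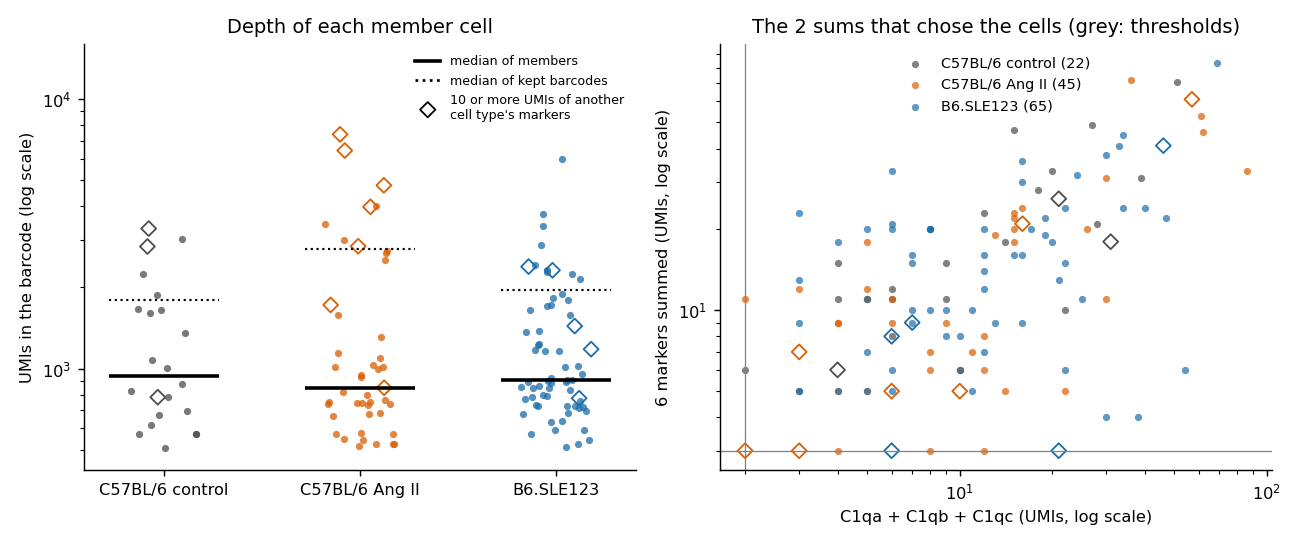
Left, total UMIs of each member on a log axis by library, with the median of members as a solid line and the median of all kept barcodes as a dotted line. Right, summed C1q UMIs against summed UMIs of the 6 markers for each member on log axes, with grey lines at the limits of 2 and 3 UMIs. Open diamonds are the 15 members with at least 10 UMIs from the marker list of another cell type. The member medians (937.5, 849 and 904 UMIs) all sit below the medians of kept barcodes (1792, 2771 and 1956).

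Hashtag populations differed within each library. Of the 22 control members, 10 carried hashtag C0305, which was 0.335% of the kept barcodes of that hashtag, and the other 5 hashtags held 1 to 4 members each. In the Ang II library the 6 hashtags held 4 to 12 members, the most on C0303 (0.503%). In B6.SLE123, hashtag C0301 held 0 members of 2952 kept barcodes, which allows a share of up to 0.102% at the limit of 3 counts (exact upper bound 0.125%), and the other 5 held 7 to 19, with the highest share on C0305 (0.705%). With any 1 hashtag left out, the log2 ratio of the share against control stayed between 1.22 and 2.00 in B6.SLE123, and between 1.03 and 1.80 with Ang II.

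**Figure D2:**
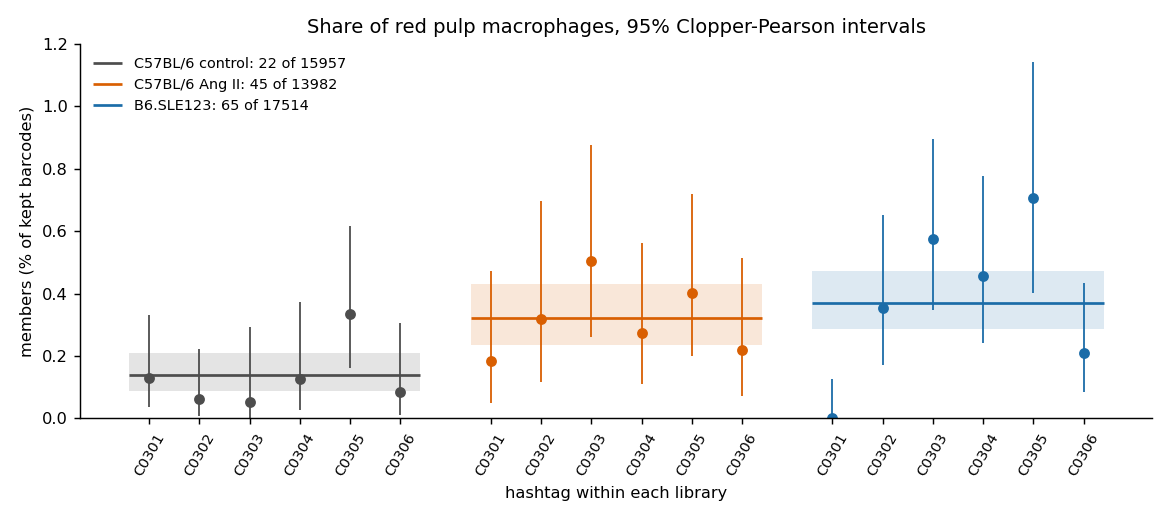
Members as a percent of kept barcodes for each of the 6 hashtags of each library, with exact 95% intervals. The horizontal line and band give the share of the whole library and its interval. Hashtag C0305 of the control library (0.335%) and C0305 of B6.SLE123 (0.705%) are the highest of their libraries, and C0301 of B6.SLE123 held no member.

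Few barcodes stood just inside the limits. Members with exactly 3 marker UMIs numbered 0, 5 and 2 in the libraries in the same order, and members with exactly 2 C1q UMIs 1, 2 and 0. Barcodes that met every other condition but had 2 marker UMIs numbered 2, 2 and 11, and those with 1 C1q UMI 1, 2 and 2. A further 54 B6.SLE123 barcodes had C1q without any of the 6 markers, against 1 in each of the other libraries. Their summed C1q level was 7747 CPM (counts per 1000000 UMIs). Another 22 B6.SLE123 barcodes had C1q and 1 marker UMI. The B6.SLE123 barcodes with 0, 1 and 2 marker UMIs held 218, 77 and 52 UMIs of the Fc receptor gene Fcgr4. Barcodes with the markers but 0 C1q UMIs numbered 28, 69 and 47, and had lower marker levels (1380, 540 and 677 CPM). The median member held 13, 10 and 12 UMIs of C1q and 16.5, 9 and 14 UMIs of the markers, well above both limits. Some deep B6.SLE123 members lay nearer the marker limit. Those with 6013, 3371 and 2274 UMIs held 54, 30 and 38 C1q UMIs but 6, 4 and 4 marker UMIs. All carried hashtag C0303, and they were not among the members with 10 or more UMIs of another cell type's markers.

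The genes of the rule are described here without a test, since they chose the members. C1qb stood at 4151 CPM in control members (3444 to 4960), 3724 with Ang II (3292 to 4198) and 5246 in B6.SLE123 (4770 to 5757). C1qa stood at 3945, 2807 and 3360 CPM and C1qc at 3945, 3349 and 3749 CPM. Over all members, each chain was lowest with Ang II, and C1qb alone was highest in B6.SLE123. The 7 Ang II members with at least 10 UMIs from another cell type's marker list held 38.9% of that library's member UMIs. The deepest of these held 6 C1q UMIs of 7393, and the next 3 of 6438. Levels of the rule genes are given with all members only, so nothing is read from the order. All 3 chains were detected together in 18 of 22, 32 of 45 and 55 of 65 members.

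Hmox1 stood at 3979 CPM in control members (3288 to 4773), 2098 with Ang II (1777 to 2461) and 4574 in B6.SLE123 (4130 to 5053). Slc40a1 had another order, with 3842 CPM in control members (3164 to 4623), 1751 with Ang II (1459 to 2085) and 1603 in B6.SLE123 (1345 to 1896). Since both genes helped to choose the members, nothing is read from either order. Vcam1, an adhesion molecule that marks these cells, was detected in 95.5%, 80.0% and 83.1% of members, at 4905, 3085 and 3360 CPM. Spic was at 686 CPM (419 to 1060), 375 CPM (247 to 546) and 849 CPM (664 to 1069), in 7 of 22, 15 of 45 and 36 of 65 members. Thinned to 500 UMIs per cell, the share with a Spic UMI was 20.8%, 18.7% and 33.2%. Cd5l, which encodes a secreted lipid-binding protein of macrophages, was at 720, 500 and 1073 CPM, and Fcna, which encodes ficolin A, at 2161, 1834 and 1367 CPM.

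Free RNA was judged from B cells, which should lack these genes. In B cells of the same libraries (median 1922, 2915 and 2218 UMIs) each of the 9 genes stood at or below 9.75 CPM, the value of C1qb in B6.SLE123, and Spic was found in 0.488%, 0.668% and 0.620% of cells.

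**Figure D3:**
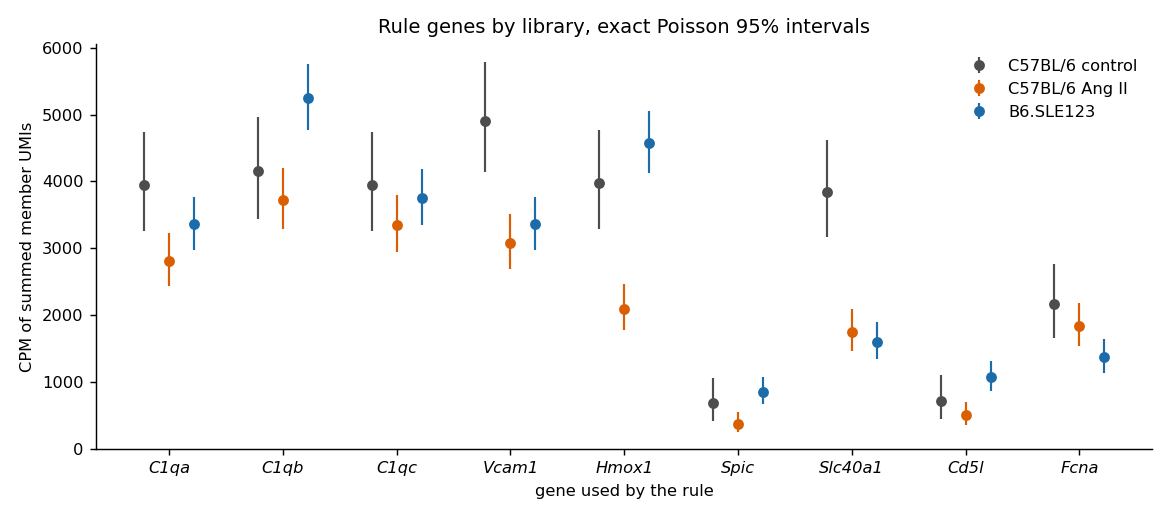
Level of the 9 genes of the rule in members of each library, in CPM on an axis that starts at 0, with exact Poisson 95% intervals. Slc40a1 is higher in the control library (3842) than in the Ang II (1751) and B6.SLE123 (1603) libraries, and Hmox1 is lowest with Ang II (2098). All members are included, also those with transcripts of another cell type.

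Genes that the rule did not use also described the members as macrophages, with Itgad the gene among these tied to the red pulp. Csf1r, the receptor for macrophage colony-stimulating factor, was at 1544, 1529 and 1214 CPM in 18 of 22, 34 of 45 and 45 of 65 members, against 1.71 to 7.13 CPM in B cells. Nonclassical monocytes, described below and chosen in part by Csf1r, held it at 866, 735 and 832 CPM. Csf1r by itself therefore does not mark the red pulp. Adgre1, which encodes F4/80, was at 720, 389 and 365 CPM in 14, 16 and 21 members. Itgad, the CD11d integrin chain of red pulp macrophages, was at 755, 806 and 472 CPM. Of the 5 genes listed for other splenic macrophages, Siglec1 and Cd209b had 0 UMIs in every library, Marco had 0, 0 and 1, and Timd4 had 0, 3 and 2. The remaining gene of that list, Nr1h3, the oxysterol receptor LXR alpha, had 9, 21 and 33 UMIs in 8, 13 and 21 members.

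Transcripts of other cell types were present in part of the members. At least 10 UMIs from the marker list of another cell type were found in 3 of 22 members in control, 7 of 45 with Ang II and 5 of 65 in B6.SLE123. These members held 23.8%, 38.9% and 9.55% of all member UMIs, and their median depth was 2837, 3981 and 1438 UMIs against 873, 758.5 and 897.5 in the others. In the control library 1 member held 1493 erythroid UMIs of its 3306. In the Ang II library 2 members held 99.1% of the 3721 neutrophil-marker UMIs. The source of these transcripts was not tested, and the counts, lists and main genes compared between libraries below are also given without these 15 members where they could be. B cell markers summed to 1, 6 and 11 UMIs over all members, dendritic cell markers to 0, 3 and 0, and basophil and endothelial or stromal markers to 0 throughout.

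Nonclassical monocytes, the patrolling monocytes that also carry Csf1r, gave a reference within each library. They were 255, 173 and 382 barcodes, chosen by Ace, Ear2, Pglyrp1, Spn and Adgre4 and by having no C1q. At least 20 UMIs over both classes were asked of a gene, and 4545 genes could be compared in every library. Members were at least 2-fold higher for 165 of these (3.63%) and at least 2-fold lower for 139 (3.06%) in all 3 libraries. Median depth was 2200, 3586 and 1839 UMIs in these monocytes, and 39, 50 and 50 of them carried at least 10 neutrophil-marker UMIs. Without the cells of either class that carried such transcripts, 86 of 2639 genes were higher in all 3 libraries.

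The iron and heme list stood on the member side. Of its 25 genes, 13 could be compared, of which 6 were at least 2-fold higher in all 3 libraries and 1 lower. Hebp1, a heme-binding protein, stood at 583, 598 and 637 CPM against 8.0, 2.48 and 6.89 CPM in the monocytes. Blvrb, a biliverdin reductase, was higher in members by log2 3.08 (2.38 to 3.74) in the control library, 4.25 (3.63 to 4.88) with Ang II and 2.74 (2.35 to 3.12) in B6.SLE123. The ferritin heavy chain Fth1 was higher by log2 1.71, 1.55 and 2.27. Slc48a1, which moves heme out of the phagolysosome, was higher by log2 3.61, 1.64 and 2.14, and Trf, which encodes transferrin, stood at 1715, 1612 and 1320 CPM against 159, 127 and 143 CPM.

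Uptake receptors and macrophage transcription factors also separated the classes. Mrc1, the mannose receptor, stood at 1166, 1181 and 743 CPM in members against 0, 4.96 and 0 CPM in the monocytes, so at least log2 8.19 higher in the control library and 7.97 in B6.SLE123. Axl, a receptor for apoptotic cells, was higher by log2 7.14, 8.66 and 6.00. Maf, a transcription factor of mature macrophages, was higher by log2 4.69, 5.41 and 5.14. Of the macrophage identity list 9 of 22 compared genes were higher in all 3 libraries and 4 lower. Of the uptake list 4 of 15 were higher and 0 lower, and of the lysosome list 9 of 25 were higher and 1 lower, among them the protease genes Ctsd (log2 2.71, 3.03 and 3.08) and Ctsb (1.75, 1.72 and 1.73).

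Further genes high in members by the naming rule were Itgad, Frmd4b, Rgs1, Pld3, Clec4n, Sash1, Il18, Basp1, Myo9a, Sdc3, Cd81, Nr1h3 and Zfp703, with smallest log2 ratios of 3.58 to 5.90 over the libraries. Nr1h3 was at 309, 292 and 389 CPM against 14.7, 9.92 and 32.5 CPM. The globin genes Hbb-bs and Hbb-bt also passed the rule, but 1 control cell held all control UMIs of each. Lower in members were Plac8, at 34.3, 13.9 and 94.3 CPM against 2816, 1641 and 2435 CPM, the cytoskeletal genes Vim and Tpm4, and S100a4, Lsp1, Napsa, Ceacam1, Hmgb2, Lyz2 and Msrb1. Lyz2, the lysozyme of monocytes and neutrophils, was lower by log2 -3.52, -2.78 and -2.31. Of the interferon list 0 of 15 were higher in all 3 libraries and 1 lower, and of the immediate early and heat shock list 0 of 17 were higher and 4 lower.

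**Figure D4:**
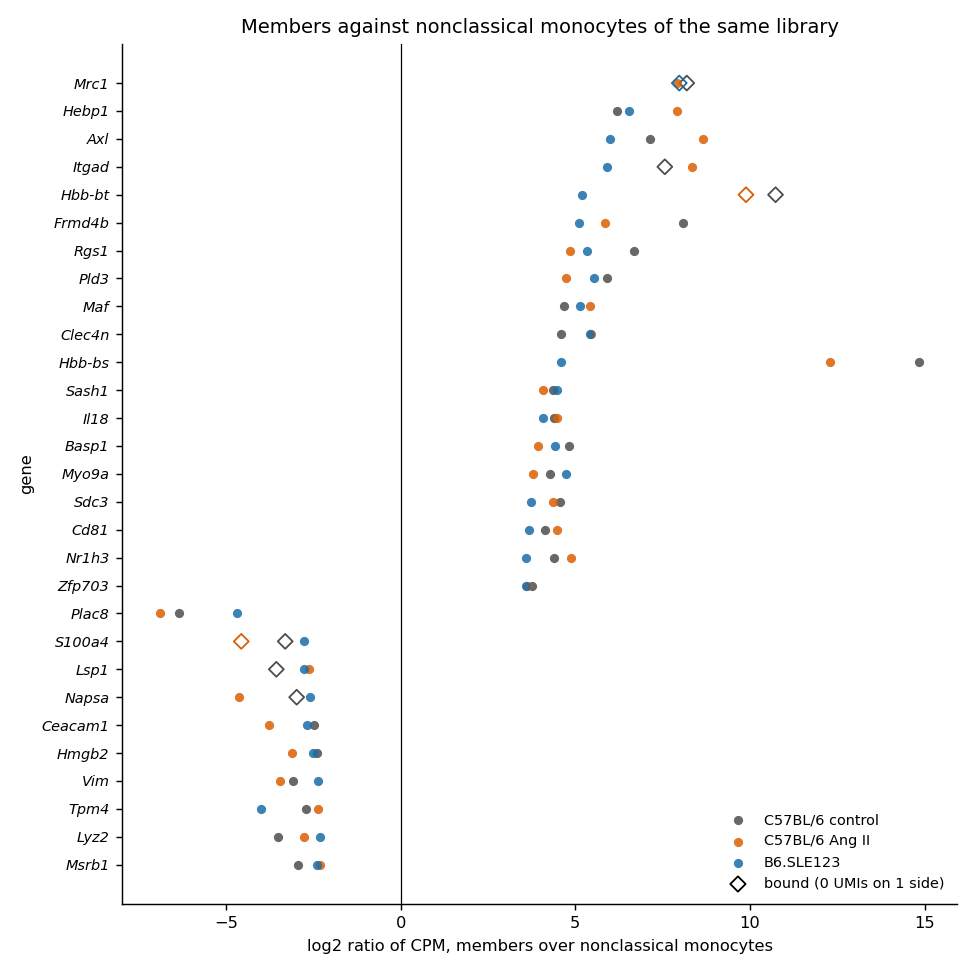
Log2 ratio of members to nonclassical monocytes in each of the 3 libraries for the highest and lowest genes of the naming rule that are reported here. Points are log2 ratios of CPM and open diamonds are bounds with 0 UMIs on 1 side. Mrc1, Axl and Hebp1 lie above log2 5 in every library, and Plac8 lies below -4.

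The B6.SLE123 library also held 79 barcodes with C1q and Cxcl14 but under 3 UMIs of the 6 markers, a class with 0 barcodes in the other libraries. Their C1q levels were of the same order as in the B6.SLE123 members, with C1qb at 4797 CPM, C1qa at 2672 and C1qc at 3135. Of 2623 genes compared within this library, members were at least 2-fold higher for 261 (9.95%) and lower for 437 (16.7%). Trf stood at 1320 CPM in members and had 0 UMIs in the C1q Cxcl14 cells, a log2 ratio of at least 6.75. Mrc1 (at least log2 5.92) and the scavenger receptor Lrp1 (at least 5.61) also had 0 UMIs there. Clec4n (log2 6.81), Igf1 (6.74), Pla2g7 (5.99), Sema6d (5.99) and Apoc1 (5.85) were the others on the member side, with 1 or 2 UMIs in the C1q Cxcl14 cells, beside the globin genes.

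Cd72, an inhibitory lectin, was on the other side, at 70.7 CPM in members against 1396 CPM (log2 -4.30, interval -5.76 to -3.16). Ccl4 (log2 -4.70), Syne1, Ifit1bl1, Bex3, Gpr137b and Slamf9 were also lower, each with 1 UMI in members. The neutrophil genes Ngp and Camp and the classical monocyte gene Chil3 were lower too, but few cells held them. The highest C1q Cxcl14 cell held 671 of the 859 Ngp UMIs, 640 of the 771 Camp UMIs and 90 of the 111 Chil3 UMIs. Of the iron and heme list 6 of 11 compared genes were higher in members and 2 lower, and of the MHC class II list 7 of 7 were higher. For Cd74, H2-Aa and H2-Eb1 the highest member held 314 of 1121, 99 of 286 and 106 of 263 member UMIs. Of the 13 genes the study examined in monocyte-derived dendritic cells, a list it chose on these samples, 4 were higher in members and 8 lower. The Fc receptor Fcgr4 stood at 377 CPM in members and 3475 CPM in the C1q Cxcl14 cells, and Fth1 at 22163 and 10952 CPM. Both classes were chosen for C1q, so the nearness of their C1q levels is no finding.

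Against the control library, B6.SLE123 members had lower Slpi and Hpgd and higher Fth1, Ifitm2, Ifitm3 and Bst2. Of 908 genes with at least 20 UMIs over both libraries, 125 (13.8%) were at least 2-fold higher in B6.SLE123 and 47 (5.18%) at least 2-fold lower. Without the members that carried another cell type's transcripts, 103 of 800 genes (12.9%) were higher and 41 (5.12%) lower. Without B6.SLE123 hashtag C0303, which held 19 of the 65 members, 48 genes were higher and 28 lower.

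Slpi, which encodes a secreted inhibitor of neutrophil elastase (chr2:164354070-164389095), stood at 4734 CPM in control members, 4947 with Ang II and 672 in B6.SLE123. It was detected in 19 of 22, 40 of 45 and 19 of 65 members. Its B6.SLE123 level was 7.05-fold below control (log2 -2.82, interval -3.29 to -2.36), and log2 -3.38 without the carrying members. With any 1 hashtag left out the log2 ratio ran from -3.20 to -2.52. In nonclassical monocytes Slpi stood at 612, 858 and 208 CPM, and in B cells at 44.6, 32.3 and 309 CPM, so the B cells had the opposite order.

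Fth1 (chr19:9980598-9985098) stood at 11972 CPM in control members (10749 to 13296), 9560 with Ang II (8859 to 10302) and 22163 in B6.SLE123 (21172 to 23188). The B6.SLE123 level was 1.85-fold that of control (log2 0.89, interval 0.72 to 1.06), and log2 0.87 without the carrying members. A single B6.SLE123 member held 21.6% of the Fth1 UMIs of that library. In nonclassical monocytes Fth1 was at 3658, 3270 and 4604 CPM and in B cells at 2847, 2730 and 2673 CPM, so the range between libraries was narrower in both.

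The ferritin light chain cannot be read gene by gene. Ftl1 was lower in B6.SLE123 (log2 -0.92) and Ftl1-ps1, a near-identical copy, higher (log2 4.67, interval 3.74 to 5.81), and reads of the pair may be split by the counting. Ftl1-ps1 took 2.27%, 4.89% and 52.9% of the UMIs of the pair in members, 1.83%, 4.24% and 47.9% in nonclassical monocytes and 1.62%, 3.32% and 43.6% in B cells. Summed over the pair, members stood at 13584, 11659 and 14877 CPM, a log2 ratio against control of 0.13 (-0.03 to 0.30) in B6.SLE123 and -0.22 (-0.39 to -0.04) with Ang II. Without the carrying members these were -0.04 (-0.21 to 0.14) and -0.05 (-0.23 to 0.14).

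Of the 24 genes of the interferon list, 7 could be compared between B6.SLE123 and control, of which 4 were at least 2-fold higher and 1 lower, with a median log2 ratio of 1.60 against 0.17 over all genes compared. Without the carrying members 6 could be compared, 3 higher and 1 lower with a median of 1.06, and without control hashtag C0305 the median was 0.93. Ifitm2 (chr7:140954837-140955987), an antiviral membrane protein, stood at 583 CPM in control members, 222 with Ang II and 2947 in B6.SLE123, in 8 of 22, 8 of 45 and 57 of 65 members. Its log2 ratio was 2.34 (1.63 to 3.14), and 3.17 without the carrying members. Ifitm3 stood at 858, 598 and 2605 CPM (log2 1.60, interval 1.0 to 2.26, and 2.23 without the carrying members). Of its 221 B6.SLE123 UMIs, 60 came from 1 member. Ifitm2 and Ifitm3 belong to a family of close copies, so the split between them is uncertain.

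B cells of the same libraries held Ifitm2 at 27.5, 11.2 and 3559 CPM, and nonclassical monocytes at 2048, 2112 and 3139 CPM. B6.SLE123 was thus highest for Ifitm2 in all 3 classes. For Ifitm3, B cells stood at 62.8, 19.5 and 135 CPM and nonclassical monocytes at 5752, 3682 and 5275 CPM. B6.SLE123 was thus not the highest for Ifitm3 in the monocytes. Bst2, which tethers budding virus, stood at 137, 264 and 637 CPM in 3, 12 and 31 members (log2 2.21, interval 0.77 to 4.14, and 1.74 without the carrying members). Ifi27l2a was higher by log2 0.76 (0.22 to 1.35), and its value without the carrying members was 0.39 (-0.18 to 1.0).

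Hpgd, Cd44, Adgre1 and Apoe were among the genes with lower levels in B6.SLE123 members. Hpgd, which inactivates prostaglandins, stood at 1132, 1001 and 413 CPM in 12 of 22, 32 of 45 and 20 of 65 members (log2 -1.46, interval -2.19 to -0.72, and -1.74 without the carrying members). Nonclassical monocytes had the same order for Hpgd, at 408, 368 and 7.87 CPM, and B cells stood at 2.99, 0.882 and 0.467 CPM. Cd44, the hyaluronan receptor, stood at 549, 417 and 82.5 CPM (log2 -2.73, interval -4.26 to -1.37), and had too few UMIs to be compared without the carrying members. Adgre1 was lower by log2 -0.98 (-1.82 to -0.11), and -1.30 without the carrying members. Apoe, the lipid carrier, was lower by log2 -1.65 (-2.0 to -1.29), but 1 control cell held 65 of its 141 control UMIs and the log2 ratio was -0.71 without the carrying members. Csf1r and Trf had log2 ratios of -0.35 and -0.38, and -0.40 and -0.66 without the carrying members.

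Genes high in B6.SLE123 by the naming rule, beside Ftl1-ps1, were Tmem176b, Coro1a, Rgs10, Ms4a6d, Romo1, Ptpn1, Pycard, Apoc1 and Il2rg, each with 1 or 2 control UMIs. For all of these but Ptpn1, leaving out the control hashtag with that UMI gave log2 bounds of 0.27 to 1.79. Ptpn1, a tyrosine phosphatase, had 44 UMIs in 31 of 65 members against 2 in 2 of 22 (log2 2.92, interval 0.98 to 6.01). Coro1a, an actin-binding protein of leukocytes, was at 34.3, 417 and 413 CPM, so it stood apart from control with Ang II as well (log2 3.60 and 3.59). Its spread differed, with 30 UMIs in 5 of 45 Ang II members, 13 of them in 1 cell. In B6.SLE123 there were 35 UMIs in 15 of 65 members, at most 8 in 1 cell. Without control hashtag C0305 no control UMI of Coro1a was left, and its log2 ratios were bounds of at least 1.02 and 1.01. Ctss, a lysosomal protease, was higher by log2 0.91 (0.32 to 1.55), and Fabp5, a fatty acid carrier, by log2 2.04 (0.38 to 4.39), with 0.84 and 1.72 without the carrying members. Fabp4 had 0 UMIs in control members and 377 CPM in B6.SLE123, a log2 ratio of at least 1.87. Genes low by the same rule, beside Slpi and Cd44, were Ahnak (log2 -2.13), with 11 of its 12 control UMIs in 1 cell, and Hba-a1, Hba-a2, Hbb-bs, Hbb-bt, Retnla, Fn1 and Prg4, each with all control UMIs in 1 cell. Without control hashtag C0304, which held the erythroid-rich member, no control UMI of Hbb-bs, Hbb-bt or Hba-a1 was left. Their B6.SLE123 log2 ratios were then bounds of at least 4.92, 3.12 and 1.86. A single B6.SLE123 member held 301 of the 316 Hbb-bs UMIs of that library.

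Wfdc17 and Lyz2 depended on the carrying members. Wfdc17, a small secreted protein of myeloid cells, stood at 1509, 528 and 2028 CPM, and 1 control cell held 35 of its 44 control UMIs. Its log2 ratio for B6.SLE123 was 0.43 with all members and 2.58 (1.5 to 3.92) without the carrying ones. Lyz2 was found in 2 of 22, 6 of 45 and 15 of 65 members, and its log2 ratio was 0.83 with all members and 5.35 (2.85 to 10.67) without the carrying ones, where 1 control UMI remained.

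The iron and heme list had 7 of 25 genes compared in B6.SLE123 against control, with 0 at least 2-fold higher and 0 lower, and 0 higher and 2 lower without the carrying members. Its median was -0.29, and 0.53 without control hashtag C0305. The macrophage identity list had 2 of 19 higher and 2 lower (3 of 18 and 2 without the carrying members), and the uptake list 1 of 6 higher and 0 lower (1 of 6 and 1). The medians of these were -0.32 and -0.54, and 0.10 and -0.12 without B6.SLE123 hashtag C0303.

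The lysosome list had 1 of 24 genes higher and 0 lower in B6.SLE123 (0 of 24 and 0 without the carrying members). The lipid list had 3 of 6 higher and 1 lower (3 of 6 and 0), with a median of 0.59 that was -0.16 without B6.SLE123 hashtag C0303. The cytokine and inflammasome list had 2 of 6 higher and 0 lower (1 of 5 and 0), the oxidative list 2 of 12 and 0 (1 of 11 and 0), and the Fc receptor list 1 of 5 and 0 (1 of 5 and 1). The immediate early and heat shock list had 2 of 7 higher and 2 lower (1 of 6 and 1). The list of genes the study examined in monocyte-derived dendritic cells, chosen on these samples, had 4 of 10 higher and 0 lower (5 of 9 and 1). Its median was 0.64, 1.17 without the carrying members and -0.31 without B6.SLE123 hashtag C0303. The MHC class II list had 1 of 6 higher and 0 lower, with and without the carrying members, and H2-Aa stood at 3465 CPM in control and 3372 CPM in B6.SLE123 members.

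Against the control library, Ang II members had lower levels of H2-Aa, H2-Ab1 and Cd74. Of 740 genes compared, 86 (11.6%) were at least 2-fold higher with Ang II and 52 (7.03%) lower. Without the carrying members, 39 of 497 (7.85%) were higher and 16 (3.22%) lower, a lower share in both directions. Without Ang II hashtag C0303, which held 12 of the 45 members, 52 genes were higher.

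H2-Aa, a chain of the antigen-presenting MHC class II molecule (chr17:34282744-34287823), stood at 3465 CPM in control members, 1542 with Ang II and 3372 in B6.SLE123, in 20 of 22, 21 of 45 and 41 of 65 members. Its Ang II log2 ratio was -1.17 (-1.57 to -0.76), and -0.78 (-1.20 to -0.36) without the carrying members. A single B6.SLE123 member held 99 of the 286 H2-Aa UMIs of that library's members. H2-Ab1, its partner chain, stood at 2195, 945 and 1933 CPM (log2 -1.22, interval -1.73 to -0.70, and -0.94 without the carrying members). Cd74, the invariant chain that guides the molecule to the endosome, stood at 12075, 6392 and 13215 CPM (log2 -0.92, and -0.51 without the carrying members), and H2-Eb1 had log2 -0.83, and -0.38 (-0.86 to 0.10) without them. Of the 10 genes in the list 6 were compared and 3 were at least 2-fold lower, with a median of -1.04. Without the carrying members 4 were compared and 0 were at least 2-fold lower, with a median of -0.65 against 0.10 over all genes. The control side of this difference rested on few cells: without control hashtag C0305, with 10 of the 22 members, 4 genes could be compared and the median was 0.19.

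In nonclassical monocytes H2-Aa did not share this order, at 1155 CPM in control, 2143 CPM with Ang II and 1041 CPM in B6.SLE123. Members therefore stood above the monocytes in H2-Aa by log2 1.58 in control and 1.70 in B6.SLE123 and below them by log2 -0.47 with Ang II.

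Genes high with Ang II by the naming rule were mostly those of neutrophil granules: Wfdc21, Ngp, Camp, Anxa1, S100a8, S100a9, Lcn2 and Retnlg, beside Ccl5 and Coro1a. A few cells held most of these transcripts (2 members held 99.1% of the neutrophil-marker UMIs), and without the carrying members 0 of the 8 neutrophil markers had enough UMIs to be compared. The genes highest with Ang II were then Lyz2, Eif4g3, Gm2a, Ywhaz, Rplp0, Chchd2, Rpl6, Tspan13, Rpl31 and Rpl14, with none of the neutrophil granule genes above, and 1 cell held 21 of the 24 Lyz2 UMIs. S100a8 and S100a9 had log2 ratios of 4.08 and 4.02, and 2.29 and 2.08 without Ang II hashtag C0306. Cybb, the catalytic subunit of the phagocyte NADPH oxidase, stood at 137, 500 and 295 CPM (log2 1.87, interval 0.39 to 3.82, and 1.26 without the carrying members, interval -0.33 to 3.28). Low with Ang II, beside Fn1, Retnla and Prg4 from single control cells, were Srsf5 (log2 -2.30), Neat1 (-2.15), Atp8a1 (-2.11), Tmem256 (-2.04), H2-DMa (-1.72), Cstb (-1.69) and Pirb (-1.65). The first 4 were also low in B6.SLE123 against the same control library, with log2 ratios of -1.73 for Srsf5, -2.01 for Neat1, -1.85 for Atp8a1 and -1.54 for Tmem256. Slpi, which set B6.SLE123 members apart, had an Ang II log2 ratio of 0.06 (-0.22 to 0.36), and Csf1r and Mrc1 had -0.01 and 0.02.

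Of the other lists with Ang II, the interferon list had 0 of 5 genes higher and 2 lower, among them Ifitm2 with log2 -1.39, and 1 of 4 higher and 1 lower without the carrying members. Its median was -0.62, and -0.16 without the carrying members, against 0.02 and 0.10 over all genes compared. The iron and heme list had 1 of 6 higher and 0 lower (0 of 6 and 0 without the carrying members), with a median of -0.25 that was 0.12 without control hashtag C0305. The macrophage identity list had 0 of 17 in either direction (1 of 16 higher and 0 lower), and the lysosome list 0 of 21 higher and 2 lower (1 of 21 and 0). Most genes of these 2 lists lay within 2-fold of control, as did most of the 740 genes compared (86 higher and 52 lower). In the lysosome list 4 of 21 genes had an interval below 0, with a median of -0.26. Without the carrying members 0 did, with a median of 0.09. The lipid list had 0 of 5 higher and 2 lower (0 of 2 and 0), the uptake list 2 of 7 and 0 (1 of 5 and 0), and the cytokine and inflammasome list 1 of 5 and 0 (0 of 3 and 0). The oxidative list had 2 of 9 higher and 0 lower (1 of 6 and 1), and the immediate early and heat shock list 1 of 7 and 0 (0 of 5 and 0).

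**Figure D5:**
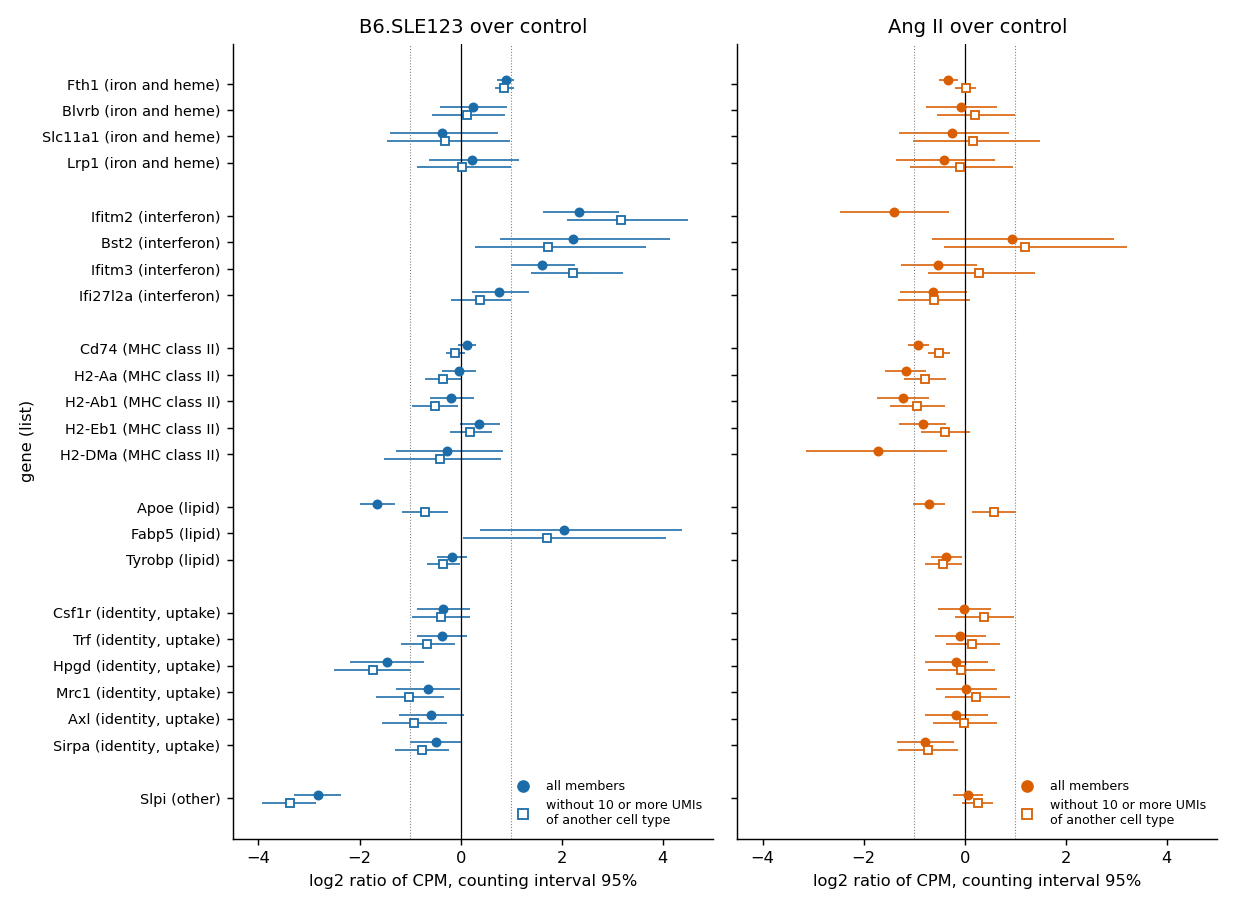
Log2 ratio against the control library for genes of the lists and named genes, with B6.SLE123 and Ang II in separate panels and exact 95% intervals. Filled points use all members, open squares leave out the members with transcripts of other cell types, and dotted lines mark a 2-fold difference. Slpi lies at -2.82 in B6.SLE123 and 0.06 with Ang II, Ifitm2 at 2.34 and -1.39, and H2-Aa at -0.04 and -1.17.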

How the data were processed

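Single-cell 5′ RNA and hashtag libraries were measured from 3 splenocyte samples. The authors deposited raw UMI counts per gene and barcode. The file headers name Cell Ranger 6.0.0 and the submitters' processing notes name mm10. Coordinates are GENCODE vM21 on GRCm38, matched by Ensembl ID (32158 of 32285 genes).

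The study states its cell limits as RNA counts, which were read here as genes. Hashtag doublets were removed by the ratio of 3. No expression-based caller was run, so doublets within 1 hashtag were not visible. Libraries shared 415 (Ang II and control), 496 (B6.SLE123 and control) and 474 (B6.SLE123 and Ang II) barcode sequences, of which 0 were members.

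Counts were summed over members per library and scaled to CPM with exact Poisson intervals. Shares carry Clopper-Pearson intervals and log2 ratios exact conditional binomial intervals. A count of 0 was set to a floor of 3 counts per library for a ratio, which is then a bound. Genes needed 20 UMIs over both groups. Named genes were the 10 highest and 10 lowest log2 ratios per comparison, rule genes left out. Between libraries, the interval also had to exclude 0 and each library to hold 10 members. Against nonclassical monocytes they were the 20 highest by the smallest log2 ratio over libraries and the 10 lowest by the largest. Some genes are not reported here. Other genes are members of the lists or were named after their values were seen. The members and lists were chosen with earlier results of these data known. Leaving out carrying members was chosen after seeing the data. The scripts were tested on simulated data. Python 3.11.15, numpy 2.4.6, scipy 1.17.1, pandas 2.3.3 and matplotlib 3.10.9 were used.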

Additional observations from a re-analysis of the deposited data

How the results depend on the processing

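Each group was 1 library, 50% to 57.8% of its members held under 1000 UMIs, and a gene under 20 UMIs was not compared. No paired analysis was possible because each group was 1 library and the hashtags carry no condition. The log2 ratio of the share kept its direction under every alternative run, lowest at 0.47 for Ang II after thinning. There a mean of 14.5 Ang II members stood against 11.6 in control, so few that the direction by itself says little. The share itself was 0.320%, 0.830% and 0.651% in control, Ang II and B6.SLE123 without the C1q condition, 0.491% in B6.SLE123 without the Cd79a condition, and 0.0798%, 0.111% and 0.185% after thinning to 1000 UMIs. With 1 hashtag left out it ran from 0.0925% to 0.158% in control, 0.285% to 0.347% with Ang II and 0.321% to 0.446% in B6.SLE123, and its log2 ratio from 1.22 to 2.00 in B6.SLE123 and 1.03 to 1.80 with Ang II.

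Counts of genes at least 2-fold apart moved with the minimum. At 10 UMIs, 319 genes were higher and 224 lower in B6.SLE123, and 240 and 232 with Ang II. At 50 UMIs, these were 21 and 12, and 22 and 6. Against nonclassical monocytes 49 were then higher, and against C1q Cxcl14 cells 77 higher and 157 lower. With Cd79b, Ms4a1 and S100a8 also at 0 in members, 30 were lower in B6.SLE123, and 38 higher and 18 lower with Ang II. Without carrying members, 39 were higher and 16 lower with Ang II, and 86 were higher against nonclassical monocytes. With 1 hashtag left out, 48 to 157 were higher and 28 to 55 lower in B6.SLE123, and 52 to 105 and 37 to 54 with Ang II. A higher minimum, an added condition and left-out cells each compared fewer genes. The log2 ratio of B6.SLE123 to control ran from -9.30 to 4.92 for Hbb-bs, -5.73 to 1.86 for Hba-a1 and -8.36 to 3.12 for Hbb-bt. It was highest without control hashtag C0304 and lowest without B6.SLE123 hashtag C0303. The highest values are bounds, since no control UMI of these genes was left. A low end with no B6.SLE123 UMI left is a bound too. The MHC class II median with Ang II ran from -1.97 without Ang II hashtag C0303 to 0.19 without control hashtag C0305. The cause was not tested beyond the cells named in the text.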
